A study of Mus musculus with 24 samples.

Results

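The genes described here are 10 nuclear genes for mitochondrial enzymes that break down the branched-chain amino acids leucine, isoleucine and valine: Bcat2, Bckdha, Bckdhb, Dbt, Ivd, Mccc1, Mccc2, Acadsb, Pcca and Pccb. They were taken by symbol from a table of 168326 transcript entries under 52089 symbols, in which the 10 symbols held 78 entries. For each gene the RefSeq mRNA entry with the highest mean over all 24 libraries was used. All 10 passed the filter on low values, and their entries held between 18 and 582 reads per library.

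Branched-chain amino acid breakdown starts with a reversible transamination in the mitochondria, which Bcat2 carries out in most tissues outside the brain. The branched-chain keto acid dehydrogenase complex, built from Bckdha and Bckdhb (the E1 alpha and beta subunits) and Dbt (the E2 core), then commits the keto acids to oxidation, and separate branches carry leucine, isoleucine and valine carbon towards acetyl-CoA and propionyl-CoA. Thermogenic fat is known to take up and oxidise these amino acids, and white fat cells use them during differentiation as a source of acetyl-CoA for lipid.

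The libraries came from primary brite adipocytes, that is, fat cells of a white depot that can acquire thermogenic genes. Stromal-vascular cells of inguinal fat from 129SvEv mice, as the labels spell the strain (129S6sv/ev in the methods of the study), were their source. Mice used for such cultures were 5 to 6 weeks old. In every group the preadipocytes were induced for 2 days, differentiated for 1 day with rosiglitazone, a PPARγ agonist that promotes browning, and then reverse-transfected with 50 nM of an LNA gapmer, a short antisense strand by which RNase H cuts the RNA it pairs with. The gapmer was directed against the long noncoding RNA Ctcflos (KD) or had no target (NC), and cells were harvested 24 h or 72 h later, with 6 libraries in each of the 4 groups. Several Ctcflos gapmers were used in the study, and the labels do not say which one these libraries received. The replicates of the transcriptome experiment were described by the study as biological; the labels do not tie libraries to separate cultures or animals, so p-values measure the spread between these samples. As these were bulk cultures of cells at different stages of differentiation, fewer cells of a type and less RNA per cell cannot be told apart.

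The libraries held 1391832 to 5926375 mapped reads (median 4009998). NC 72 h replicates 2 and 3 differed by less than the sampling noise, so they were averaged and counted as 1 sample, which left NC 72 h with 5. In NC 72 h replicate 6 only 19.8% of low read numbers were odd, against 56.1 to 58.6% elsewhere, so its reads may have been counted in pairs and its depth may be overstated. Samples were divided into 2 clusters, a number set in advance, by their deviations from the group means. Between samples of different groups these deviations had a mean correlation of 0.07 in the same cluster and -0.08 in different clusters. The clusters were cut from these same correlations, so that difference follows from the division. For the same reason the spread within a cluster, and the p-values that rest on it, may be too small. Each cluster held both treatments and both times. The smaller held KD 24 h replicates 3 and 4 and NC 24 h replicates 5 and 6. At 72 h it held KD replicates 5 and 6 and NC replicates 4 and 5. The target itself, Ctcflos (1300015D01Rik, NR_040321), had a median RPKM of 0.09 in KD and 0.73 in NC at 24 h, and of 0.21 and 1.0 at 72 h. Its groups overlapped at 24 h (highest KD 0.62, lowest NC 0.18) and did not at 72 h (0.52 and 0.85). A GenBank entry of it (AK079954) overlapped at 24 h (0.83 and 0.67) and not at 72 h (0.98 and 1.16), and the Ensembl entry ENSMUST00000144256 overlapped at 24 h (0.96 and 0.16) and at 72 h, where its highest KD value was 0.49 and its lowest NC value 0.0. The groups thus overlapped in all 3 entries at 24 h and in 1 of 3 at 72 h. These values rest on few reads, as 3 reads on an entry of 2 kb made 0.25 to 1.08 RPKM. The overlap therefore does not measure the strength of the knockdown. By qPCR, the study reported that Ctcflos transcripts were efficiently reduced. Fold changes below are on RPKM values rescaled between libraries; on RPKM as deposited, KD stood above NC at the median of all entries by 0.25 (log2) at 72 h and 0.05 at 24 h, so both scales are given where they differ in a call or direction of the 10 genes. Adipocyte markers were found in every library, with 6 genes summing to 27435 to 53355 RPKM. Most of this was Fabp4, at 23950 to 50816 RPKM. Plin1 (8.05 to 22.4) and Lipe (13.1 to 28.8) were far less abundant.

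At 24 h, 3 of the 10 genes fell in KD: Pcca, Mccc2 and Ivd. At 72 h, 5 fell: Pcca, Bckdhb, Acadsb, Dbt and Pccb. None rose at either time, and Pcca was called at both. A gene was called where its adjusted p, from limma over all entries tested, was below 0.05. Of all entries tested, 22.7% were called at 24 h (11.6% lower in KD) and 22.3% at 72 h (12.0% lower). The median log2 fold change of the 10 genes was -0.35 at 24 h, with 9 of 10 below 0, and -0.51 at 72 h, with 10 of 10 below 0, where the medians of all entries were -0.01 and 0.01. The calls at 72 h over the whole table divided into 5614 higher and 6545 lower on rescaled RPKM, and into 13166 higher and 3102 lower on RPKM as deposited. On that deposited scale only Pcca of the 10 genes was called at 72 h, the median of the genes was -0.27 and that of all entries 0.25, and KD had the lower median RPKM for 6 of the 10 genes, against 9 of 10 at 24 h.

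**Figure D1:**
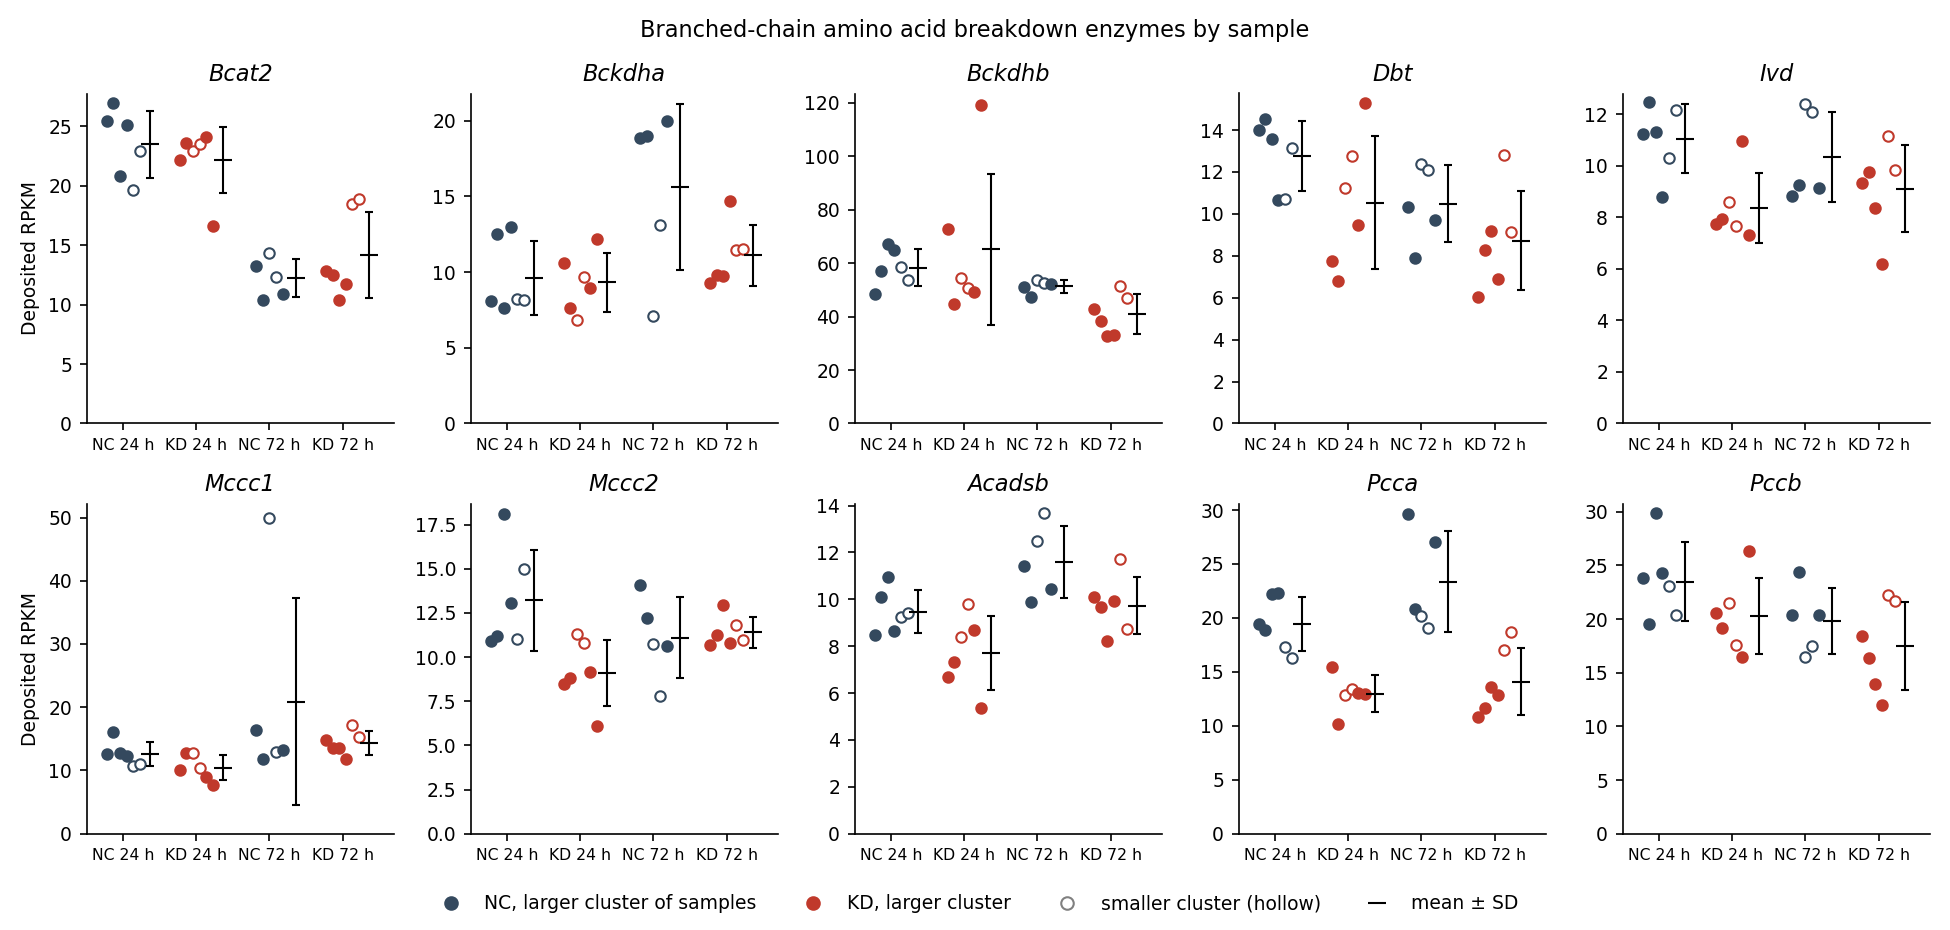
RPKM as deposited (vertical axes) of the 10 genes in every sample of the 4 groups, with NC in dark and KD in red; hollow points belong to the smaller cluster of samples and black bars give the mean ± SD. Only Pcca had KD and NC samples that did not overlap at both times, with 10.1 to 15.4 in KD against 16.3 to 22.3 in NC at 24 h. The share of all entries without overlap was not counted.

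The 4 genes called at 72 h for which RefSeq gave a promoter window lie at these places, in build GRCm38: Pcca at chr14:122534324-122891100 (plus strand, 24 exons), Bckdhb at chr9:83925145-84124240 (plus strand, 11 exons), Acadsb at chr7:131410601-131448944 (plus strand, 11 exons) and Pccb at chr9:100982032-101034898 (minus strand, 15 exons). Their promoters are shown because these genes were called at 72 h, although all 10 genes were below 0 on rescaled RPKM at that time. Dbt, also called, had no promoter window. Each line is the 250 bases before the RefSeq start in GRCm38.p6, 5′ to 3′ on the gene's strand, with the letters CCAAT or AGGTCA (on either strand) in capitals. The windows are chr14:122534078-122534327 for Pcca, chr9:83924887-83925136 for Bckdhb, chr7:131410351-131410600 for Acadsb and chr9:101034885-101035134 for Pccb.
Pcca: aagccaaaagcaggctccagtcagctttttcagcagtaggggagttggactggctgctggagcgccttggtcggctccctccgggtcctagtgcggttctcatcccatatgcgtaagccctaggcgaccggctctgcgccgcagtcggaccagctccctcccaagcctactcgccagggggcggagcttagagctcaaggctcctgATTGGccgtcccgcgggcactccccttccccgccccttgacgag
Bckdhb: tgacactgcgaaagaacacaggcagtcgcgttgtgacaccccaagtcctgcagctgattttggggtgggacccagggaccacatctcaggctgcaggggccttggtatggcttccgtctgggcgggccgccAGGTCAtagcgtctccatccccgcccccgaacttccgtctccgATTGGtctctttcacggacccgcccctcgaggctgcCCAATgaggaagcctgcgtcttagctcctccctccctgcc
Acadsb: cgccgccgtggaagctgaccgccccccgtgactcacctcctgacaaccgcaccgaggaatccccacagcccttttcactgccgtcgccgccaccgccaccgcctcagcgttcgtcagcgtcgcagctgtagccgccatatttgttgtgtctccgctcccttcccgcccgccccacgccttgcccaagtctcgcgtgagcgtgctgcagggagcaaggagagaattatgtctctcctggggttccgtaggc
Pccb: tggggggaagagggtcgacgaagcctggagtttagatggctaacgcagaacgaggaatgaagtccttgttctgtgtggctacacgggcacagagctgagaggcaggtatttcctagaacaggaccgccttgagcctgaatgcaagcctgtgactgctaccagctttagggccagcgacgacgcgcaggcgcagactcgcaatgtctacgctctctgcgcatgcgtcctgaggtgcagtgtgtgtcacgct

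RefSeq gave 12 promoter windows for 9 of the 10 genes, all but Dbt, and 4 motifs were searched in them on both strands. The full element for PPAR and its RXR partner, a tandem of AGGTCA with any base between the copies, was in 0 of the 12 windows and in 0.0335% of 32851 windows over all genes. TNAAGGTCA, which oestrogen-related receptors bind, was in 0 of 12 and in 1.14% of all. CCAAT was in 6 of 12 and in 33.8% of all, and the 6 belonged to Bckdhb, Ivd, Mccc1, Mccc2 and both starts of Pcca. AGGTCA, which the first 2 motifs contain, was in 2 of 12 (the Bckdhb window above and the other start of Pcca) and in 14.0% of all. The windows shown held 64.8% GC for Pcca, 63.2% for Bckdhb, 65.6% for Acadsb and 57.6% for Pccb, against a median of 52.4% over all windows. The other starts of Pcca and Bckdhb, not shown, were at 53.6% and 36.4%. Among genes not called at 72 h, Mccc2 was at 58.8%, Ivd at 51.2%, both Bcat2 windows at 50.4%, Mccc1 at 48.4% and Bckdha at 47.6%. Genes called and genes not called were found both with and without CCAAT. The difference in GC between called and uncalled genes was not tested.

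The propionyl-CoA carboxylase, which joins the isoleucine and valine branches to the citric acid cycle, held the gene with the lowest fold change at both times, Pcca, its biotin-carrying alpha subunit. At 24 h, Pcca RPKM was 10.1 at the lowest, 13 at the median and 15.4 at the highest in KD, and 16.3, 19.1 and 22.3 in NC. At 72 h it was 10.8, 13.2 and 18.7 in KD, and the 5 NC samples stood at 29.6, 20.9, 20.2, 19.1 and 27.0. Every KD sample lay below every NC sample at both times. How many of all entries had groups without overlap was not counted, here and for the other genes below. On rescaled RPKM the log2 fold change was -0.63 (SE 0.14, adjusted p = 0.0052, 6 against 6 samples), or 0.65-fold, at 24 h. At 72 h it was -0.98 (SE 0.16, adjusted p = 7.0e-04, 6 against 5 samples), or 0.51-fold. The deposited scale gave -0.58 (adjusted p = 0.0087) and -0.73 (adjusted p = 0.0059). Pcca was called in each of 12 fits without 1 library at both times. Within the larger cluster the values were -0.8 (adjusted p = 0.0071) and -1.28 (adjusted p = 2.8e-04), and within the smaller cluster, with 2 against 2 samples, -0.34 (adjusted p = 0.28) and -0.47 (adjusted p = 0.15); the difference between clusters was not tested.

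Of 6 tested transcript entries of Pcca, 5 were called lower in KD at each time. Their log2 fold changes were nearly the same (-0.66 to -0.63 at 24 h and -1.0 to -0.98 at 72 h). Entries of 1 gene can share reads, so these 5 do not count as separate measurements. The exception was AK049052, a GenBank entry of 1894 bases and the most abundant of the 6, at a mean RPKM of 79.3. Its median RPKM was 79.7 in KD and 76.7 in NC at 24 h, and 82.7 and 77.2 at 72 h, and its log2 fold changes on rescaled values were -0.14 (adjusted p = 0.53) and -0.35 (adjusted p = 0.32). The difference between this entry and the others was not tested. Pcca is also the longest of the 10 genes, at 356.8 kb. Among genes over 200 kb, 55.8% of 355 were called lower in KD at 24 h, with a median log2 fold change of -0.86, and 40.9% of 391 at 72 h, with a median of -0.61; the part of gene length in the Pcca result was not tested.

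Pccb, the beta subunit of the same carboxylase, was lower in KD by less. At 24 h its RPKM was 16.5, 19.9 and 26.3 (lowest, median, highest) in KD and 19.6, 23.4 and 29.9 in NC. At 72 h it was 12, 17.4 and 22.2 in KD, and 20.4, 24.4, 16.5, 17.5 and 20.4 in the NC samples. The groups overlapped at both times. The log2 fold change was -0.27 (SE 0.14, adjusted p = 0.16) at 24 h and -0.45 (SE 0.15, adjusted p = 0.047) at 72 h. The 72 h call was near the threshold. It held in 5 of 12 fits without 1 library (those without KD 72 h replicate 5 or 6 or NC 72 h replicate 2, 3 or 4). Of these, the fits without NC 72 h replicate 2 or 3 lost no sample. The highest adjusted p was 0.096, and the deposited scale gave -0.2 (adjusted p = 0.4). Within the larger cluster Pccb was at -0.73 (adjusted p = 0.006) and within the smaller at 0.04, and the difference between clusters was not tested.

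The keto acid dehydrogenase complex held 2 called genes at 72 h and none at 24 h. Bckdhb, the E1 beta subunit, had the highest RPKM of the 10 genes in every group. At 24 h its RPKM was 44.7, 52.6 and 119 in KD and 48.6, 57.9 and 67.2 in NC. At 72 h it was 32.8, 40.6 and 51.6 in KD, while the NC samples stood close together at 51.2, 47.4, 53.6, 52.5 and 52.4. The deposited values overlapped at both times, and the rescaled values did not overlap at 72 h. The log2 fold change was 0.02 (SE 0.18, adjusted p = 0.94) at 24 h and -0.6 (SE 0.1, adjusted p = 0.0012), or 0.66-fold, at 72 h. Bckdhb was called at 72 h in each of 12 fits without 1 library, and the deposited scale gave -0.35 (adjusted p = 0.054). Its 3 entries were all called at 72 h, but entries of 1 gene can share reads and do not count as separate measurements. The highest 24 h value belonged to KD 24 h replicate 6, the shallowest library, without which the 24 h difference was -0.15 (adjusted p = 0.39). Bckdhb spans 199.1 kb; among genes of 100 to 200 kb, 19.8% of 817 were called lower in KD at 72 h with a median of -0.2, and the part of gene length in the result was not tested. Within the larger cluster the 72 h value was -0.67 (adjusted p = 0.0014) and within the smaller -0.43 (adjusted p = 0.11).

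Dbt, the E2 transacylase at chr3:116513070-116549981 (plus strand), was called at 72 h at the edge of the threshold. At 24 h its RPKM was 6.79, 10.3 and 15.3 in KD and 10.7, 13.4 and 14.5 in NC. In the 72 h samples it was 6.02, 8.7 and 12.8 in KD and 10.3, 7.89, 12.4, 12.1 and 9.69 in the NC samples. The groups overlapped at both times. The log2 fold change was -0.37 (SE 0.2, adjusted p = 0.18) at 24 h and -0.53 (SE 0.18, adjusted p = 0.050) at 72 h. The call at 72 h was kept in 2 of 12 fits without 1 library (those without KD 72 h replicate 5 or NC 72 h replicate 3), and the highest adjusted p was 0.11. The fit without NC 72 h replicate 3 lost no sample, as replicate 2 stayed in. The deposited scale gave -0.29 (adjusted p = 0.29), and the clusters gave -0.51 (larger) and -0.5 (smaller).

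Bckdha, the E1 alpha subunit at chr7:25629946-25658981 (minus strand), was not called. At 72 h its RPKM was 9.3, 10.7 and 14.7 in KD and 18.8, 19.0, 7.09, 13.1 and 20 in the NC samples. One NC sample, replicate 4, was below all KD samples. The log2 fold change was -0.66 (SE 0.25, adjusted p = 0.075) at 72 h and -0.09 (SE 0.18, adjusted p = 0.76) at 24 h. Without NC 72 h replicate 4 the 72 h value was -0.93 (adjusted p = 0.0029), and without KD 72 h replicate 4 it was -0.77 (adjusted p = 0.050), which passed. It was -1.05 (adjusted p = 0.0024) within the larger cluster and -0.08 within the smaller.

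**Figure D2:**
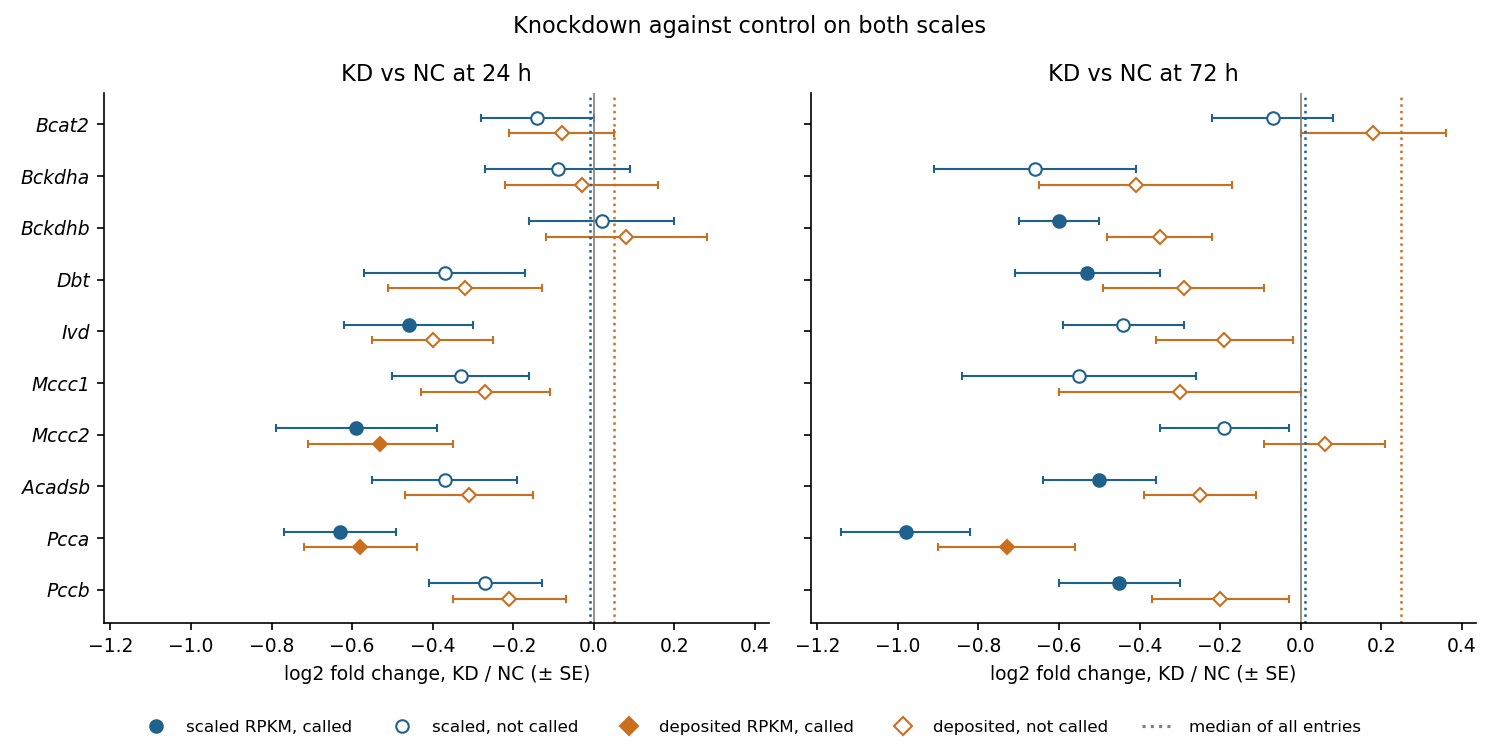
Log2 fold change of KD against NC (± SE) at 24 h and 72 h for the 10 genes on rescaled RPKM (blue circles) and RPKM as deposited (orange diamonds), with filled symbols for called genes and dotted lines at the median of all entries. All 10 genes were below 0 at 72 h on rescaled RPKM, whereas Bcat2 (0.18) and Mccc2 (0.06) were above 0 on the deposited scale.

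In the leucine branch, Ivd, the isovaleryl-CoA dehydrogenase at chr2:118861954-118882909 (plus strand), and Mccc2, the beta subunit of methylcrotonoyl-CoA carboxylase at chr13:99948530-100015639 (minus strand), fell at 24 h. Ivd RPKM at 24 h was 7.3, 7.83 and 11 in KD and 8.8, 11.3 and 12.5 in NC. Mccc2 RPKM was 6.09, 8.98 and 11.3 in KD and 10.9, 12.1 and 18.1 in NC. For both genes the lowest KD value came from KD 24 h replicate 6, the shallowest library, with 21 reads for Ivd and 18 for Mccc2. Both pairs of groups overlapped, those of Mccc2 only between 10.9 and 11.3. The log2 fold change at 24 h was -0.46 (SE 0.16, adjusted p = 0.048) for Ivd. It was -0.59 (SE 0.2, adjusted p = 0.046), or 0.67-fold, for Mccc2. Neither call was robust to leaving out 1 library. Ivd stayed called in 3 of 12 such fits (without KD 24 h replicate 3 or 5 or NC 24 h replicate 4, highest adjusted p = 0.093), and Mccc2 in 2 of 12 (without KD 24 h replicate 3 or 4, highest adjusted p = 0.1). On the deposited scale Mccc2 was at -0.53 (adjusted p = 0.047) and Ivd at -0.4 (adjusted p = 0.064). Mccc2 was at -0.8 (adjusted p = 0.029) within the larger cluster and -0.2 (adjusted p = 0.63) within the smaller, and Ivd at -0.48 and -0.44.

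At 72 h neither was called. Ivd RPKM was 6.19, 9.55 and 11.2 in KD and 8.82, 9.26, 12.4, 12.1 and 9.14 in the NC samples, a log2 fold change of -0.44 (SE 0.15, adjusted p = 0.056) that passed without KD 72 h replicate 5 (-0.48, adjusted p = 0.045). Mccc2 RPKM was 10.7, 11.1 and 13 in KD and 14.1, 12.2, 10.8, 7.8 and 10.6 in the NC samples, a log2 fold change of -0.19 (SE 0.16, adjusted p = 0.43). The groups of both genes overlapped. The change of the Mccc2 difference between 24 h and 72 h was 0.41 (SE 0.26, adjusted p = 0.55), so a difference between times was not shown.

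Mccc1, the biotin-carrying alpha subunit of that carboxylase at chr3:35959312-36000678 (minus strand), was not called at either time. At 24 h its RPKM was 7.68, 10.2 and 12.8 in KD and 10.7, 12.4 and 16.1 in NC, a log2 fold change of -0.33 (SE 0.17, adjusted p = 0.18). By 72 h it stood at 11.8, 14.2 and 17.1 in KD and 16.4, 11.8, 49.9, 12.9 and 13.3 in the NC samples. NC 72 h replicate 4 alone stood far above the rest. The 72 h log2 fold change was -0.55 (SE 0.29, adjusted p = 0.19) with it and -0.18 (adjusted p = 0.35) without it. In that library 4 of the 5 tested Mccc1 entries were between 49.9 and 59.1 RPKM against 8.59 to 16.4 in the other NC 72 h samples, while ENSMUST00000149693, an entry of 468 bases, was at 60.9, inside the range of 43.4 to 66.2 of the others.

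Acadsb, the short/branched-chain acyl-CoA dehydrogenase of the isoleucine branch, fell at 72 h. Its RPKM at 24 h was 5.36, 7.85 and 9.79 in KD and 8.49, 9.34 and 10.9 in NC. The 72 h values were 8.23, 9.79 and 11.7 in KD and 11.4, 9.89, 12.5, 13.7 and 10.4 in the NC samples. The deposited values overlapped at both times, and the rescaled values did not at 72 h. The log2 fold change was -0.37 (SE 0.18, adjusted p = 0.15) at 24 h and -0.5 (SE 0.14, adjusted p = 0.02), or 0.71-fold, at 72 h. The 72 h call held in 11 of 12 fits without 1 library and was missed without NC 72 h replicate 5 (-0.44, adjusted p = 0.052). On the deposited scale it was -0.25 (adjusted p = 0.21). It was -0.37 within the larger cluster and -0.69 within the smaller, neither of which was called.

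**Figure D3:**
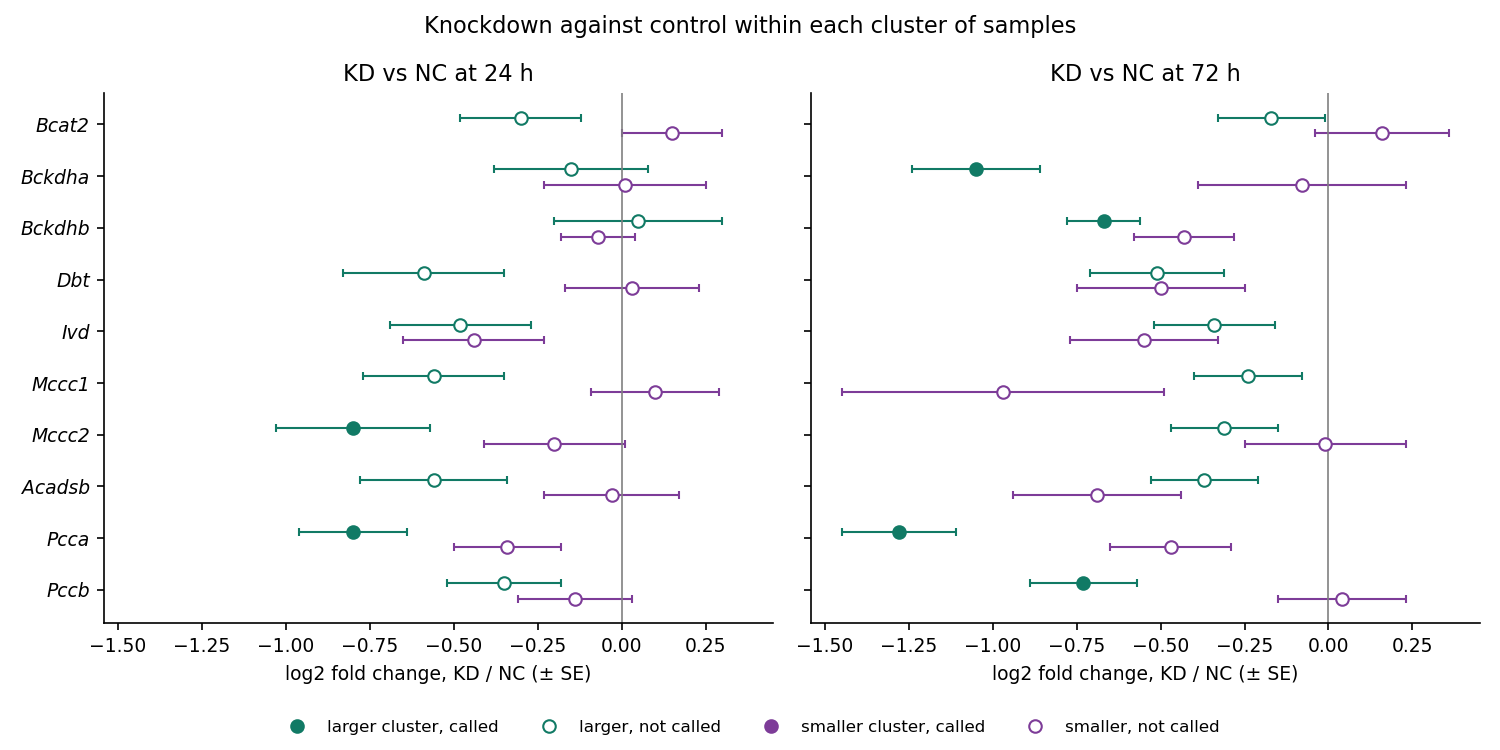
Log2 fold change of KD against NC on rescaled RPKM at 24 h and 72 h, computed separately in the larger (green) and the smaller (purple) cluster of samples, with filled symbols for called genes. Calls were made only in the larger cluster, where Pcca reached -1.28 at 72 h, and Bcat2 and Pccb lay above 0 in the smaller cluster at 72 h.

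Bcat2, the mitochondrial transaminase at chr7:45570153-45589711 (plus strand), was the gene of the 10 that changed most with time and it did not pass between KD and NC. Its RPKM in NC was 19.7, 24 and 26.9 at 24 h, and 13.3, 10.4, 14.3, 12.3 and 10.9 in the 5 samples at 72 h, which did not overlap. In KD it was 16.6, 23.2 and 24.1 at 24 h and 10.4, 12.7 and 18.9 at 72 h, which did. From 24 h to 72 h Bcat2 fell in NC by 0.91 on the log2 scale (SE 0.12, adjusted p = 2.7e-04), to 0.53-fold. In KD it fell by 0.84 (SE 0.17, adjusted p = 0.0053), to 0.56-fold. The NC value was -1.04 (adjusted p = 9.2e-04) within the larger cluster and -0.69 (adjusted p = 0.092) within the smaller, and the KD values were -0.92 (adjusted p = 0.011) and -0.68 (adjusted p = 0.023). The comparison of KD with NC gave -0.14 (SE 0.14, adjusted p = 0.5) at 24 h and -0.07 (SE 0.15, adjusted p = 0.78) at 72 h, where the deposited scale gave 0.18 (adjusted p = 0.47).

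Among the 10 genes, Bcat2 alone was called over time in NC, against 9.12% of all entries tested (4.63% higher and 4.49% lower at 72 h). In KD, Bcat2 and Bckdhb were called, against 9.83% of all entries (5.01% higher and 4.82% lower). Over all entries in KD, 2667 were called higher at 72 h and 2562 lower on rescaled RPKM, and 5244 of 6485 calls were higher on RPKM as deposited. Bckdhb fell in KD by 0.77 from 24 h to 72 h (SE 0.19, adjusted p = 0.017), without overlap of the rescaled values, and stood at -0.15 (SE 0.09, adjusted p = 0.36) in NC. Without KD 24 h replicate 6 the KD value was -0.6 (adjusted p = 0.008), and the deposited scale gave -0.6 (adjusted p = 0.083). The test of whether the KD against NC difference changed with time called none of the 10 genes, against 0.200% of all entries (119 of 59413, and 6978 at an unadjusted p below 0.05), of which 75 (0.126%) were higher and 44 (0.0741%) lower on rescaled RPKM and 744 of 774 higher on RPKM as deposited. For Bckdhb that change was -0.61 (SE 0.22, unadjusted p = 0.0099, adjusted p = 0.25). Bckdha rose with time in neither group by the test, at 0.66 (SE 0.26, adjusted p = 0.13) in NC, which passed without NC 72 h replicate 4 (0.93, adjusted p = 0.0074), and at 0.09 in KD.

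The other genes of the pathway, a list of 28 with transporters, regulators and the steps shared with fatty acid oxidation, also held more genes called lower than higher in KD. At 24 h 27 passed the filter, of which 7 fell and 1 rose in KD, with a median of -0.34. At 72 h 14 fell and 1 rose, with a median of -0.45. On the deposited scale the counts were 7 and 1 at 24 h, and 4 (Dld, Echs1, Etfa and Etfdh) and 1 (Slc3a2) at 72 h. The other 10 genes that fell at 72 h on rescaled RPKM were not called on the deposited scale, where they stood between -0.49 (Oxct1, adjusted p = 0.058) and -0.13 (Bckdk, adjusted p = 0.52). Called at both times on rescaled RPKM were 7 genes: Auh, Dld, Etfb, Etfdh, Hibadh, Mcee and Slc3a2.

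The upstream steps gave the 1 gene that rose. Slc3a2, the heavy chain that partners the large neutral amino acid transporter at the cell surface, was higher in KD by 0.95 (adjusted p = 0.002) at 24 h and 0.44 (adjusted p = 0.0069) at 72 h. Slc7a5, the light chain of that transporter, was not called, at -0.21 (adjusted p = 0.7) and -0.07 (adjusted p = 0.91). Bckdk, the kinase that phosphorylates and inhibits the keto acid dehydrogenase, fell at 72 h by 0.38 (adjusted p = 0.047). Dld, the E3 dehydrogenase that this complex shares with pyruvate dehydrogenase, was at -0.4 (adjusted p = 0.032) and -0.67 (adjusted p = 3.2e-04).

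Downstream, Auh, the hydratase of the leucine branch, was at -0.55 (adjusted p = 0.014) at 24 h and -0.64 (adjusted p = 0.04) at 72 h. In the valine branch Hibadh, a dehydrogenase of 3-hydroxyisobutyrate, was at -0.38 (adjusted p = 0.024) and -0.5 (adjusted p = 0.005), and Aldh6a1, which forms propionyl-CoA, was at -0.48 (adjusted p = 0.036) at 72 h. Echs1, a hydratase also used in fatty acid oxidation, was at -0.68 (adjusted p = 8.6e-04) at 72 h. Abat, the 4-aminobutyrate transaminase, was called at 24 h alone, at -0.91 (adjusted p = 0.031).

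Past propionyl-CoA carboxylase, Mcee, the methylmalonyl-CoA epimerase, was at -0.41 (adjusted p = 0.01) and -0.51 (adjusted p = 0.0078). At 72 h Mmut, the mutase that yields succinyl-CoA, was at -0.62 (adjusted p = 0.0082) and Mmab, which prepares its cobalamin cofactor, at -0.63 (adjusted p = 0.017). Each step from propionyl-CoA to succinyl-CoA had a called gene at 72 h on rescaled RPKM, and on RPKM as deposited Mcee (-0.26), Mmut (-0.38) and Mmab (-0.38) were not called.

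The electron carriers that accept electrons from Ivd and Acadsb were lower too. Etfa, a subunit of the electron transfer flavoprotein, was at -0.91 (adjusted p = 2.9e-05) at 72 h. Etfb, the other subunit, was at -0.39 (adjusted p = 0.015) at 24 h and -0.43 (adjusted p = 0.0051) at 72 h, and Etfdh, which passes these electrons to ubiquinone, at -0.52 (adjusted p = 0.025) and -0.67 (adjusted p = 0.0017). The ketone body enzymes at the end of the leucine branch, Acat1 at -0.67 (adjusted p = 0.0025) and Oxct1 at -0.74 (adjusted p = 0.0043), were called at 72 h.

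**Figure D4:**
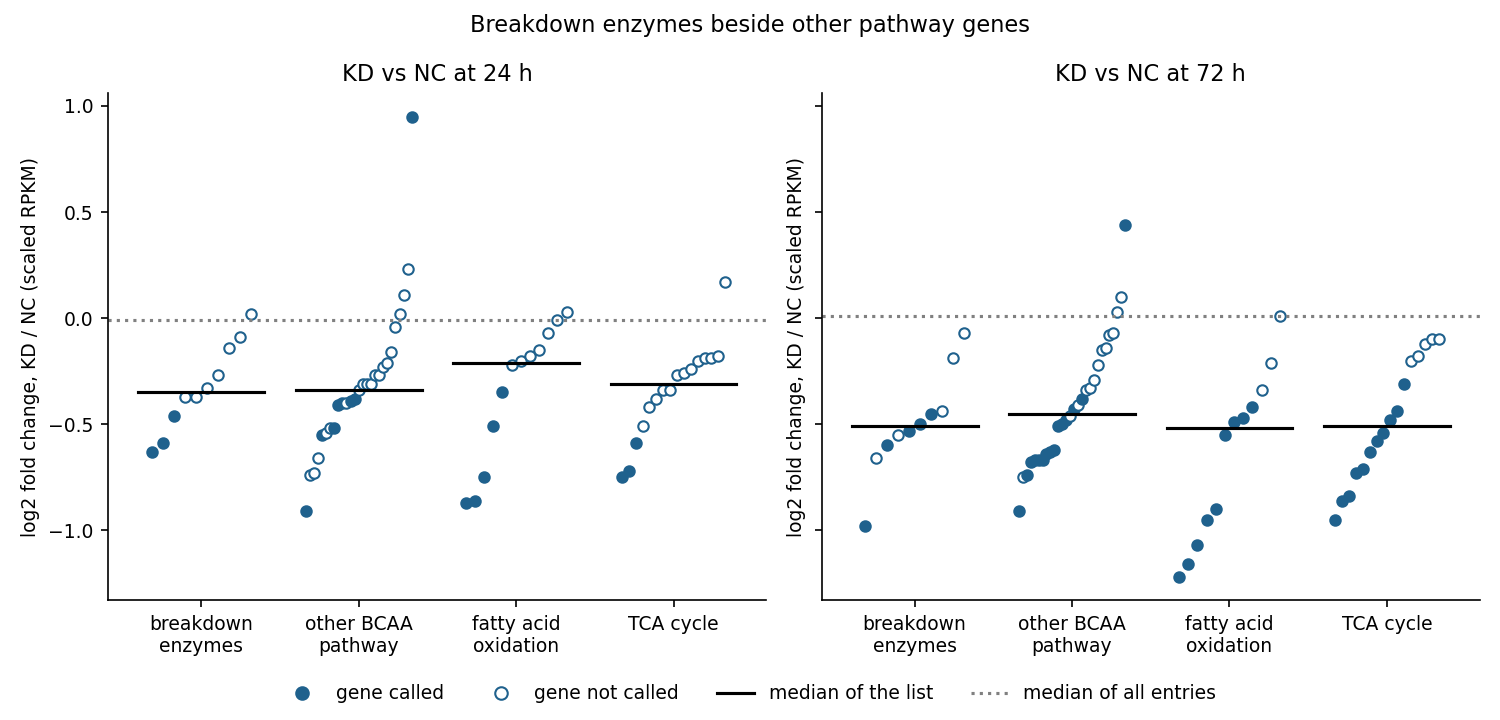
Log2 fold change of KD against NC on rescaled RPKM for each gene of 4 lists (the 10 genes, the other genes of the pathway, fatty acid oxidation, citric acid cycle) at 24 h and 72 h, with filled points for called genes, bars at list medians and dotted lines at the median of all entries. The 4 list medians at 72 h lay between -0.52 and -0.45; on the deposited scale fewer genes were called in each list at 72 h.

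Lists of neighbouring mitochondrial pathways had medians close to that of the 10 genes. Of 12 fatty acid oxidation genes 5 fell at 24 h (median -0.21) and 9 at 72 h (median -0.52), among them Acadm, the medium-chain acyl-CoA dehydrogenase, at -1.22 (adjusted p = 2.2e-04) and Hadh at -1.16 (adjusted p = 7.9e-06) at 72 h. Of 16 citric acid cycle genes 3 fell at 24 h (median -0.31) and 11 at 72 h (median -0.51), among them Sucla2, a succinyl-CoA synthetase subunit, at -0.95 (adjusted p = 2.4e-04) and Idh3a at -0.86 (adjusted p = 1.0e-04). None of either list rose. On the deposited scale 5 fatty acid oxidation and 4 citric acid cycle genes were called at 72 h, among them the 4 just named. The lists were not tested against each other, and nothing in these counts set branched-chain amino acid breakdown apart.

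Over the 23 samples the mean standardised level of the 10 genes had a median of -0.37 in KD and 0.56 in NC at 24 h, and of -0.82 in KD and 0.47 in NC at 72 h. The entries whose levels followed it most closely were Ndufb5 (Pearson's r = 0.95) and Chchd3 (r = 0.95), followed by 1110008P14Rik (r = 0.94), Ndufs4 (r = 0.94) and the GenBank entry AK131589 (r = 0.94). Ndufb5 and Ndufs4 encode subunits of respiratory complex I, and Chchd3 a protein of the mitochondrial inner membrane. These samples share treatment, time and cluster, and after removal of group means r was 0.79 for Ndufb5 and 0.77 for Chchd3, so the values describe these samples only.

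Markers of cell state moved with treatment as well. Of 5 brite markers, 4 fell at 24 h (2 on the deposited scale) and 5 at 72 h (5 on the deposited scale), and their summed RPKM at 72 h was 425 to 847 in KD against 1212 to 1978 in NC. Of 6 adipocyte markers, 3 fell at 24 h and 2 at 72 h, where the deposited scale had 2 lower at 24 h and 1 lower and 1 higher at 72 h, with sums at 72 h of 27435 to 40332 in KD and 33285 to 43335 in NC. Fabp4 made up most of these sums. Stromal markers summed to 805 to 961 in KD and 370 to 949 in NC at 72 h. Most of this was Ly6a (737 to 877 in KD and 312 to 883 in NC), which was not called (0.27, adjusted p = 0.38). The 2 of 5 tested that were called higher were Cd34 (2.02, adjusted p = 0.0015) and Pdgfrb (0.59, adjusted p = 0.0077). Pdgfra (-0.3) and Thy1 (-0.04) were below 0 and not called. Of the mesothelial or epithelial list only Krt19 passed the filter and it was higher in KD by 2.54 on the log2 scale at 72 h, with list sums of 119 to 171 in KD and 17.8 to 26.2 in NC, while Upk3b was at 0 in every library. Of 5 macrophage markers 2 passed the filter at 72 h, where Csf1r was higher in KD by 1.23 and Lyz2 was at -3.68, with list sums of 6.79 to 11.5 in KD and 7.27 to 28 in NC. Of 4 skeletal muscle markers Acta1 alone passed and was at -1.75 at 72 h, with list sums of 1.49 to 9.55 in KD and 4.04 to 19.6 in NC. Endothelial markers summed to 0.19 to 1.48 RPKM, and none passed the filter. The part of these marker differences in the results on the 10 genes was not tested.

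**Figure D5:**
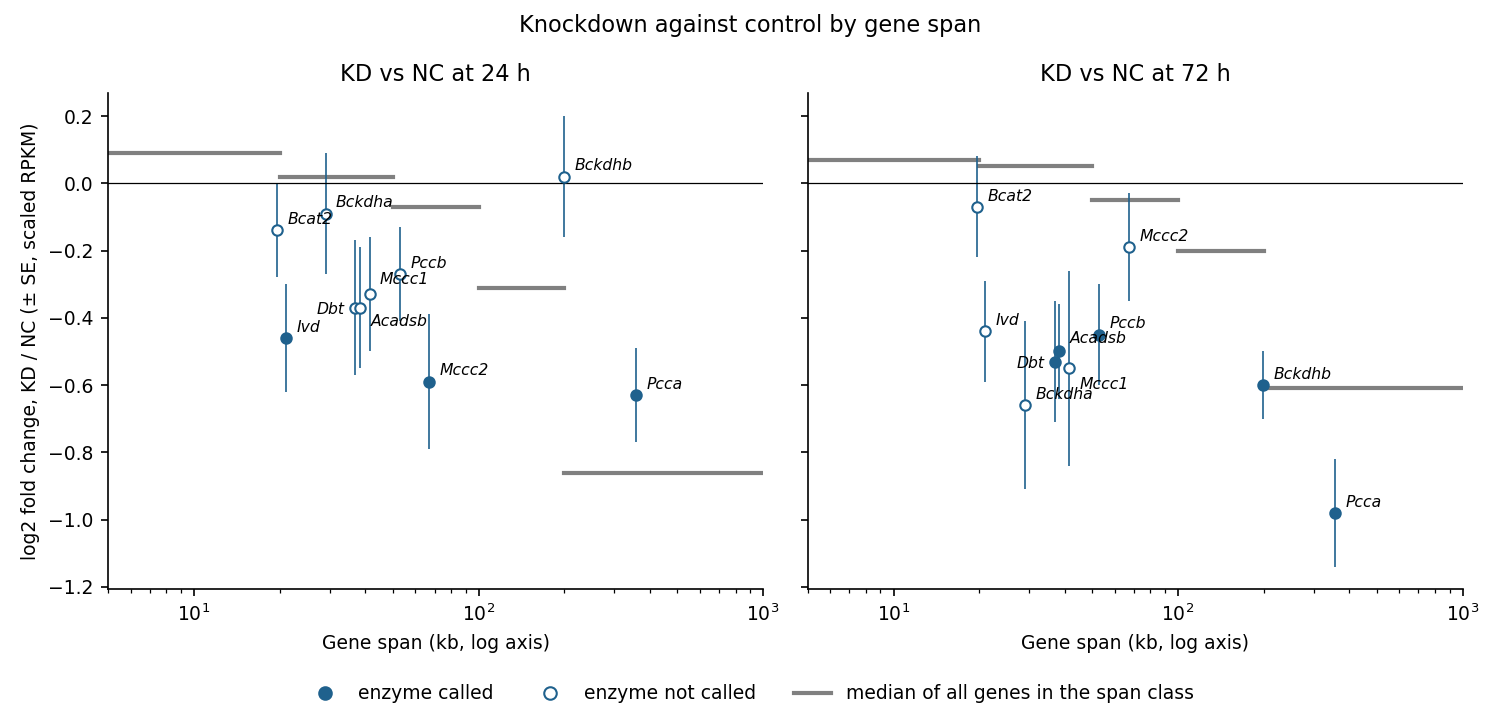
Log2 fold change of KD against NC (± SE, rescaled RPKM) of the 10 genes at 24 h and 72 h against the span of the gene in kb (log axis), with grey lines at the median of all genes in each span class. Pcca, the longest at 356.8 kb, was at -0.63 and -0.98, where genes over 200 kb had medians of -0.86 and -0.61, and the 8 genes under 100 kb lay below 0 at both times with class medians near 0.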

How the data were processed

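RNA from primary brite adipocytes was sequenced by 3′ end BRB-seq, in which full-length cDNA is tagmented. Per the labels, the authors mapped reads with the Genomatix Software Suite and deposited RPKM for RefSeq, Ensembl and GenBank entries; strand handling and genome build were not given in the sources used here. RPKM divides by entry length although reads come from 3′ ends, so levels of different genes compare only roughly. The deposited RPKM values were scaled between libraries only by read total. Whole reads were recovered from their steps in 93.0 to 93.7% of low values (within 0.02 reads), which gave the depths. Entries were kept where as many samples as the smaller group reached the RPKM of 10 reads at median depth, and 15 reads were found in total. RPKM was rescaled by trimmed means (30% of log ratios, 5% of levels) and log2(RPKM + 0.1) was tested with limma 3.58.1 (R 4.3.3, the data.table package, 1.17.8; Python 3.11.15, pandas 2.3.3 and numpy 2.4.6), with Benjamini-Hochberg adjustment over all entries and a threshold of 0.05; fold changes on this scale are understated for low genes. The fits used the groups compared, without covariates, and were tested on simulated data. Gene coordinates came from the GENCODE annotation of GRCm38, matched by symbol. Alternatives covered the pseudocount, filter, scaling, test, entries, samples and replicate block. All 10 genes were described. Genes of the neighbouring lists were named where called between KD and NC, and Slc7a5 as the partner of Slc3a2. For fatty acid oxidation and the citric acid cycle only the 2 called genes with the largest change were named. The 5 entries outside these lists with the highest correlation to the mean of the 10 were also named. Members and lists were chosen with earlier results of these data known. Depth limits cover counting error only.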

Additional observations from a re-analysis of the deposited data

Results flagged for a closer look

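Of 40 gene and group combinations among the 10 genes, 2 had a sample far from the others, where chance gives about 1 in 20. Bckdha in KD 72 h replicate 4 was at 14.3 rescaled RPKM, with the other 5 samples between 8.28 and 9.86, a gap of 0.74 of the range. Mccc1 in NC 72 h replicate 4 was at 51.8 rescaled RPKM, with the others between 12.8 and 17.6, a gap of 0.88 of the range.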

How the results depend on the processing

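Under alternatives that kept all libraries or stayed within a cluster, 506 fold changes of the 10 genes kept direction and side of the threshold, 31 no longer passed, 7 newly passed and 26 reversed; the cause was not tested unless the setting itself shows it. Pcca, in the RefSeq entry used, was lower and called in KD at both times under every alternative with all libraries, and outside the smaller cluster. The choice of entry mattered. The most abundant Pcca entry, described above, was not called at 24 h (-0.14, adjusted p = 0.53) or 72 h (-0.35, adjusted p = 0.32). RPKM as deposited called 1 of the 10 genes at 72 h and 1 over time in KD, and gave 774 entries for the change of the KD difference with time. At 72 h it called 5 other pathway, 5 fatty acid oxidation and 4 citric acid cycle genes, and over time 4 other pathway genes in NC, 2 in KD and 0 citric acid cycle genes in KD. It reversed Bcat2 (0.18) and Mccc2 (0.06) at 72 h, Ivd (0.11) and Pcca (0.1) over time in KD, and the change with time of Dbt (0.03), Acadsb (0.07) and Pccb (0.01). With 1 entry per symbol, and so fewer tests, 2613 entries were called at 24 h, 2811 at 72 h, 1072 over time in NC (with 4 other pathway genes), 1259 in KD and 45 for the change with time. No filter on low values left 1 of the 10 genes at 24 h and 3 at 72 h. With 1 fit over all groups 8200 entries were called over time in KD. The change with time gave 199 entries at a pseudocount of 0.5, 244 at 1 and 182 with NC 72 h replicates 2 and 3 separate. Limma voom on recovered reads put Bckdhb at 24 h at -0.02 and the change with time of Ivd at -0.0.

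Samples with the same replicate number had correlations of deviations from the group means of -0.15 to 0.17. The labels do not say whether they share a culture, and such correlations cannot settle it. With the replicate number as a block, 1 of the 10 genes (Pcca, -0.63, adjusted p = 0.017) was called at 24 h. At 72 h 2 were called (Pcca, -0.99, adjusted p = 0.0095, and Bckdhb, -0.55, adjusted p = 0.014). The block gave 8746 entries at 24 h, 8213 at 72 h, 2898 over time in NC, 3867 in KD and 28 for the change with time.

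Within the smaller cluster, with 2 samples a group, 0 of the 10 genes were called at 24 h, 0 at 72 h, 0 over time in NC and 1 in KD. Of all entries, 1562 of 52997, 5764 of 56098, 1745 of 53984 and 7250 of 55129 were called in these comparisons. For the change with time 1836 of 59194 were called. Values reversed there at 24 h for Bcat2 (0.15), Bckdha (0.01), Bckdhb (-0.07), Dbt (0.03) and Mccc1 (0.1), and at 72 h for Bcat2 (0.16) and Pccb (0.04). Over time they reversed for Dbt (0.02) and Ivd (0.11) in NC and for Mccc2 (-0.32), Acadsb (-0.21) and Pcca (0.07) in KD, and the change with time for Ivd (-0.11) and Pccb (0.18). Within the larger cluster 2 genes were called over time in NC and 860 entries for the change with time, which reversed for Dbt (0.08), Mccc1 (0.31) and Acadsb (0.19).

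Leaving out each library in turn gave 9061 to 14171 entries at 24 h, 9745 to 12119 at 72 h and 53 to 175 for the change with time. Of the 10 genes 1 to 3 were called at 24 h, 2 to 6 at 72 h and 1 to 2 over time in NC. Reversals occurred for Bckdha (-0.15 to 0.0) and Bckdhb (-0.15 to 0.12) at 24 h, for Bckdha (-0.01 to 0.15), Ivd (-0.11 to 0.03) and Pcca (-0.14 to 0.01) over time in KD, and for the change with time of Bcat2 (-0.03 to 0.15), Ivd (-0.04 to 0.12) and Mccc1 (-0.32 to 0.16), none of them called. Depth limits Bckdha and Ivd most by median reads per library (73.5 and 76.5), and the lowest single value was 18 reads, for Mccc2.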

Other observations

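The other genes of the pathway were also tested over time. In NC 2 of them fell from 24 h to 72 h, Etfb by 0.44 and Dld by 0.27 on the log2 scale, and none rose, that is, 2 of 28 where 9.12% of all entries were called. In KD 7 of 27 tested fell and 1 rose, where 9.83% of all entries were called, all named here after their values were seen. Bcat1, the cytosolic transaminase, rose by 0.93. Ppm1k, the phosphatase that activates the keto acid dehydrogenase, fell by 1.29, and Slc25a44, a mitochondrial branched-chain amino acid carrier, fell by 0.64. Slc3a2 fell by 0.67, Oxct1 by 0.73, Dld by 0.53, Etfa by 0.5 and Etfb by 0.48. On RPKM as deposited 4 were called lower in NC, and in KD only Ppm1k was called lower and Bcat1 higher. A difference between the treatments in these time courses was not shown by these counts.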
